A study of Mus musculus with 12 samples.

Results

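The transcripts described here encode the receptor complex that binds bacterial lipopolysaccharide and the proteins that first pass on its signal: Tlr4, Cd14 and Ly96 of the receptor complex, the adaptors Tirap, Myd88 and Ticam1, the kinases Irak4, Irak3 and Tbk1, and the ubiquitin ligase Traf6. These 10 members were chosen by gene name, with earlier results of these data known. Rows of the liver count table were matched to them through the Ensembl identifiers of the GENCODE vM1 annotation. Of the 10 members, 9 were matched to a row among the 51609 rows of the table, and all 9 passed the filter on low counts that left 17652 rows for testing. Tirap, the adaptor that links Myd88 to the receptor at the plasma membrane, had no matched row, so its level was not analysed here.

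Toll-like receptor 4 does not bind lipopolysaccharide alone. The plasma protein Lbp hands it to Cd14, Cd14 passes it to MD-2, the small secreted protein encoded by Ly96 that sits on the ectodomain of the receptor, and the loaded complex dimerises. At the cell surface Tirap and Myd88 then gather Irak4 and related kinases and Traf6, a route that ends in activation of NF-κB, whose transactivating subunit is encoded by Rela. After endocytosis Ticam1 (TRIF) takes over and recruits Tbk1, the kinase that phosphorylates Irf3. Irak3 (IRAK-M) is a member of the kinase family that restrains the Myd88 route and is best known from macrophages. In liver the receptor complex is prominent in Kupffer cells, the resident macrophages that meet portal blood from the gut.

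Whole liver RNA was sequenced from C57BL/6 mice aged 5 to 7 weeks, with 3 livers in each of 4 groups. Wild-type mice were Cre-negative littermates and were either left untreated or given 2% dextran sulfate sodium (DSS), a detergent-like polysaccharide that injures the colonic epithelium, in drinking water for 6 days. Mice labelled RelaΔhepStat3Δhep carried floxed Rela and Stat3 alleles and Cre recombinase under the albumin promoter, which is active in hepatocytes, and were untreated or treated with DSS in the same way. Kupffer cells of these mice should therefore retain both genes, and whole liver RNA does not separate Kupffer or other cells from hepatocytes.

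Library totals ranged from 65879529 to 82850098 estimated counts. Hepatocyte markers were abundant in every library, with 8 of them, albumin included, summing to between 82600 and 168000 CPM (counts scaled to the library total after adjustment by the trimmed mean of M-values, TMM). Rela itself was not lower in livers labelled RelaΔhepStat3Δhep (log2 difference to wild-type −0.03 untreated and 0.12 with DSS). Stat3 differed by −0.93 untreated and −1.99 with DSS without passing the test in edgeR (adjusted p of 0.175 with DSS), although DESeq2 called it lower with DSS (adjusted p = 0.0262). RelaΔhepStat3Δhep livers held 43 to 74.8 CPM of Stat3. Wild-type livers held 45.7, 138 and 87.6 CPM untreated and 63.2, 330 and 307 CPM with DSS, so that liver 1 of each lay within that range. The genotype is therefore given as labelled. Sex-linked transcripts set one group apart. The 3 DSS-treated libraries labelled RelaΔhepStat3Δhep held 903 to 1280 CPM of Xist and at most 0.12 CPM summed over 4 Y-linked genes, whereas the 3 untreated ones held at most 29 CPM of Xist and at least 175 CPM of the Y-linked genes. Wild-type untreated liver 3 held both, with 1140 CPM of Xist and 30.1 CPM of the Y-linked genes, and the other 5 wild-type libraries had the pattern of the untreated RelaΔhepStat3Δhep livers. In every comparison that uses the DSS-treated RelaΔhepStat3Δhep livers, the group and the sex of the animals cannot be told apart.

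All 9 measured transcripts were present in every liver, at levels that differed widely between members. Per kilobase of exon, the untreated wild-type mean was highest for Tbk1 (9.54 CPM per kb), followed by Ly96 (7.66), Ticam1 (7.54), Myd88 (6.35) and Traf6 (4.26). Irak4 (2.10), Cd14 (1.40), Tlr4 (1.35) and Irak3 (0.237) were scarcer on the same per-kilobase scale. The receptor itself was thus less abundant per kilobase than its partner Ly96 and than both adaptors measured. All levels are CPM on this TMM-adjusted scale, and fold changes are on the log2 scale.

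Tlr4 (ENSMUSG00000039005; mm9 chr4:66488618-66591318, plus strand), the signalling receptor, was measured at 9.37, 4.29 and 8.84 CPM in untreated wild-type livers and at 10.9, 13.1 and 7.29 CPM after DSS. The ranges of these 2 groups overlapped, and the log2 fold change was 0.48 (SE 0.31, edgeR adjusted p = 0.518). In livers labelled RelaΔhepStat3Δhep the receptor stood at 9.46, 7.48 and 8.02 CPM untreated and at 21.2, 13.4 and 11.5 CPM after DSS. Every treated liver lay above every untreated one, with liver 1 the highest of all 12, yet the log2 fold change of 0.89 (SE 0.31) did not pass the test across all genes (edgeR adjusted p = 0.101). It passed when only these 2 groups were fitted (0.87, edgeR adjusted p = 0.0407). The group means followed the order wild-type untreated (7.50 ± 2.79, SD, n = 3), RelaΔhepStat3Δhep untreated (8.32 ± 1.03), wild-type DSS (10.4 ± 2.94) and RelaΔhepStat3Δhep DSS (15.4 ± 5.14), and the ranges of neighbours in this order overlapped.

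Cd14 (ENSMUSG00000051439), the lipid-binding co-receptor that exists on the membrane and in plasma, was low in 11 of 12 livers. Untreated wild-type livers held 2.78, 1.60 and 2.25 CPM, and DSS-treated ones 1.73, 14.6 and 1.32 CPM. Wild-type DSS liver 2 alone accounted for the higher mean, since the other two treated livers lay within or below the untreated range. The log2 fold change of 1.41 (SE 0.73, edgeR adjusted p = 0.411) became −0.53 (edgeR adjusted p = 0.464) without that liver. In RelaΔhepStat3Δhep livers the levels were 1.57, 1.57 and 1.17 CPM untreated and 3.31, 3.41 and 3.42 CPM after DSS. These groups did not overlap and the treated livers were close to each other, but the log2 fold change of 1.23 (SE 0.74) did not pass the test with all 4 groups in the fit (edgeR adjusted p = 0.345). With only these 2 groups in the fit it did (1.21, edgeR adjusted p = 0.0111).

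Ly96 (ENSMUSG00000025779; mm9 chr1:16678537-16699686, plus strand), which encodes MD-2, rose with DSS in livers labelled RelaΔhepStat3Δhep. Its levels there were 3.26, 2.58 and 2.52 CPM untreated and 7.90, 4.48 and 6.09 CPM after DSS. The groups did not overlap, and the 2.21-fold difference passed the test (log2 fold change 1.14, SE 0.30, edgeR adjusted p = 0.0368). Of the 6 fits that each left out 1 of these libraries, it passed in 1, the fit without DSS-treated liver 2, and across the 6 the adjusted p ran from 0.0372 to 0.162. With all libraries it passed under each of the 6 other settings tried (adjusted p from 0.00628 to 0.0425, DESeq2 and edgeR). Wild-type livers held 3.78, 3.23 and 6.85 CPM untreated and 4.75, 4.0 and 3.30 CPM after DSS. Here the groups overlapped, with untreated liver 3 the highest, and the log2 fold change of −0.20 (SE 0.29, edgeR adjusted p = 0.814) became 0.20 (edgeR adjusted p = 0.824) without that liver. The 3 highest Ly96 levels of the 12 came from libraries rich in Xist, namely RelaΔhepStat3Δhep DSS livers 1 and 3 and wild-type untreated liver 3; the part of sex in this result cannot be told apart from that of treatment.

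**Figure D1:**
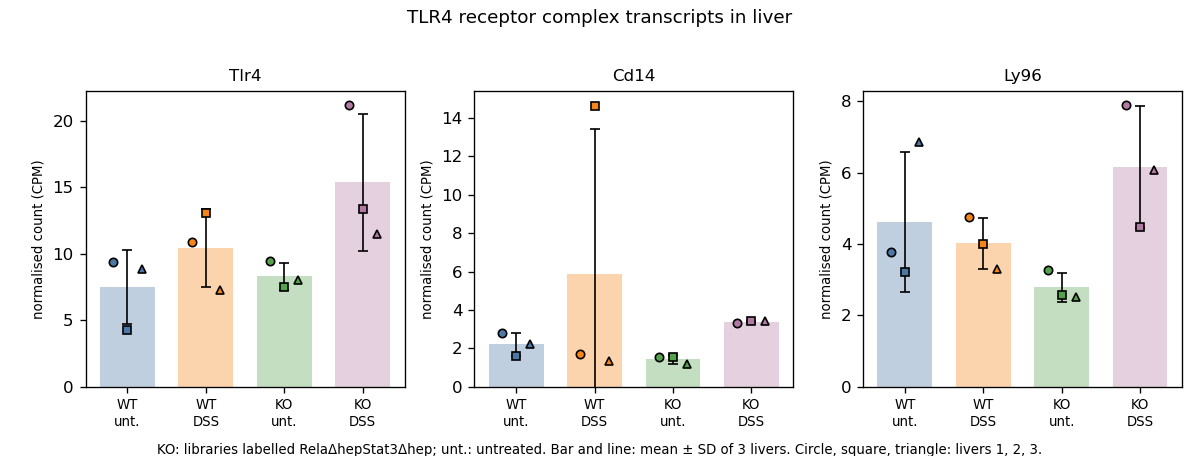
Normalised counts (CPM, linear axis from 0) of Tlr4, Cd14 and Ly96 in each of the 12 livers. Symbols are single livers, and bars and lines are the mean ± SD of 3 livers, with lines cut at 0. Tlr4 reached 11.5 to 21.2 CPM in the DSS-treated RelaΔhepStat3Δhep livers, above all 3 untreated livers of that label, and the wild-type DSS mean of Cd14 rests on the single liver at 14.6 CPM.

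Myd88 (ENSMUSG00000032508; mm9 chr9:119245052-119250529, minus strand), the adaptor shared by most Toll-like receptors and the receptors of the interleukin-1 family, was at 16.3, 18.8 and 14.0 CPM in untreated wild-type livers and at 19.7, 36.2 and 24.7 CPM after DSS. The treated livers all lay above the untreated ones, with liver 2 the highest. The log2 fold change was 0.72 (SE 0.22) and did not pass the test in edgeR (adjusted p = 0.152), while DESeq2 gave 0.71 with an adjusted p of 0.0493. In RelaΔhepStat3Δhep livers the levels were 18.1, 15.7 and 15.8 CPM untreated and 15.3, 23.9 and 21.5 CPM after DSS. The treated liver 1 lay below all untreated ones, and the log2 fold change was 0.29 (SE 0.22, edgeR adjusted p = 0.45).

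Because the study deleted an NF-κB subunit and a STAT factor, the sequences before the starts of the member genes were searched on both strands for a STAT motif (TTCNNNGAA), the core of the interferon-stimulated response element (ISRE) and the κB motif. RefSeq windows of 300 bases (250 before and 50 after each start, build GRCm38.p6) were searched for 7 of the 10 members, in 9 windows. Tlr4, Cd14 and Ly96, the members of the receptor complex, were not among them, so the search does not cover these genes. The Myd88 window was the only one of the 9 with a match. Its STAT match began 46 bases before the start and its ISRE match 40 bases before it, so that they share bases. Among 32851 windows of the same length, 8.30% held the STAT motif, 3.44% the ISRE core and 8.46% the κB motif, which matched in none of the 9. The 250 bases before the start of Myd88 (GRCm38.p6 chr9:119340019-119340268, minus strand), with both matches in capitals, are set beside those of Tbk1 (chr10:121586795-121587044, minus strand) and of the first Irak3 start (chr10:120201598-120201847, minus strand), members whose DSS levels lay above untreated ones without a match:
Myd88: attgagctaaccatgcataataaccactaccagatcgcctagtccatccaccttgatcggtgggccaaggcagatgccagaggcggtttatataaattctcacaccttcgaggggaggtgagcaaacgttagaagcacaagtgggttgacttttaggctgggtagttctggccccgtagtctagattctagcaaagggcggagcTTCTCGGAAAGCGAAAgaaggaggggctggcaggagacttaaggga
Tbk1: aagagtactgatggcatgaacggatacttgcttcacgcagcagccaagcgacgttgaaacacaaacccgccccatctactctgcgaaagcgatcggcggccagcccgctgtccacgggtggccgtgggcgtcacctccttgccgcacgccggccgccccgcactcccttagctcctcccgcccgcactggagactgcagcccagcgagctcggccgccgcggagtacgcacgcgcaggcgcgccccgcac
Irak3: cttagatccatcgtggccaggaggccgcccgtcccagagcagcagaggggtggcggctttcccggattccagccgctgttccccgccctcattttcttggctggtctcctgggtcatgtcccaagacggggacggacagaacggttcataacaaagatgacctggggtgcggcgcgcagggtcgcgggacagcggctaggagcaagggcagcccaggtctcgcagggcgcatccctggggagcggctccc
A match is a run of letters only, and neither a match nor its absence says whether a factor binds there.

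Ticam1 (ENSMUSG00000047123; mm9 chr17:56408742-56416209, minus strand), the adaptor of the endosomal route, had similar group means. They were 22.6 ± 2.34 and 23.6 ± 1.63 CPM (SD, n = 3) in untreated and DSS-treated wild-type livers, and 23.6 ± 5.72 and 25.3 ± 5.40 CPM in those labelled RelaΔhepStat3Δhep. Single livers ran from 18 to 29.8 CPM, both ends in RelaΔhepStat3Δhep livers, and all 4 groups overlapped, with log2 fold changes to DSS of 0.07 (SE 0.19) and 0.10, both with edgeR adjusted p above 0.05 (0.919 and 0.784).

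Irak3 (ENSMUSG00000020227; mm9 chr10:119578704-119639186, minus strand), the inhibitory kinase family member, had the largest DSS fold change of the 9 in both genotypes. Untreated wild-type livers held 0.460, 1.18 and 0.981 CPM and treated ones 1.91, 9.81 and 2.34 CPM. The groups did not overlap, and the 5.37-fold difference (log2 fold change 2.42, SE 0.57) missed the threshold in edgeR (adjusted p = 0.0782) and passed it in DESeq2 (adjusted p = 0.000937). Wild-type DSS liver 2 carried much of it: without that liver the log2 fold change was 1.28 (edgeR adjusted p = 0.167), and without DSS liver 1 it was 2.80 (edgeR adjusted p = 0.0286). In RelaΔhepStat3Δhep livers the levels were 0.731, 0.745 and 1.24 CPM untreated and 2.25, 2.30 and 1.94 CPM after DSS. These groups did not overlap either, with treated livers close together, and the log2 fold change was 1.25 (SE 0.56, edgeR adjusted p = 0.192). It passed when only these 2 groups were fitted (1.23, edgeR adjusted p = 0.0362).

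Irak4 (ENSMUSG00000059883; mm9 chr15:94374074-94412246, plus strand), the kinase that Myd88 recruits first, averaged 10.6 ± 1.69 and 13.5 ± 2.58 CPM (SD, n = 3) in untreated and treated wild-type livers, and 10.9 ± 1.70 and 12.5 ± 1.69 CPM in RelaΔhepStat3Δhep livers. The groups overlapped in both genotypes, with log2 fold changes of 0.36 (SE 0.18, edgeR adjusted p = 0.403) and 0.21 (edgeR adjusted p = 0.54). Traf6 (ENSMUSG00000027164; mm9 chr2:101518586-101541826, plus strand), the ubiquitin ligase on which the Myd88 route converges, had group means that lay close together. They ran from 32.9 to 37.7 CPM, and its log2 fold changes were 0.17 (SE 0.13, edgeR adjusted p = 0.61) in wild-type and −0.12 (edgeR adjusted p = 0.621) in RelaΔhepStat3Δhep livers.

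Tbk1 (ENSMUSG00000020115; mm9 chr10:120983511-121023850, minus strand), the kinase downstream of Ticam1, rose with DSS in livers labelled RelaΔhepStat3Δhep. It was at 31.0, 26.4 and 31.9 CPM untreated and at 36.4, 47.5 and 43.4 CPM after DSS. The groups did not overlap, and the 1.43-fold difference passed the test (log2 fold change 0.51, SE 0.14, edgeR adjusted p = 0.0425). This call was narrow: it was lost in each of the 6 fits that left out 1 library (edgeR adjusted p from 0.0536 to 0.168), although the log2 fold change stayed between 0.42 and 0.60. It was also lost with RLE size factors (edgeR adjusted p = 0.053), without a filter (0.0666), with only these 2 groups fitted (0.0636) and with the replicate block (0.0579), and it held in DESeq2 (adjusted p = 0.0188) and with at least 10 counts in every library (0.0401). Wild-type livers held 25.6, 32.4 and 28.7 CPM untreated and 35.8, 34.2 and 38.6 CPM after DSS. The treated livers again lay above the untreated ones, by a log2 fold change of 0.33 (SE 0.14) that did not pass the test (edgeR adjusted p = 0.296).

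**Figure D2:**
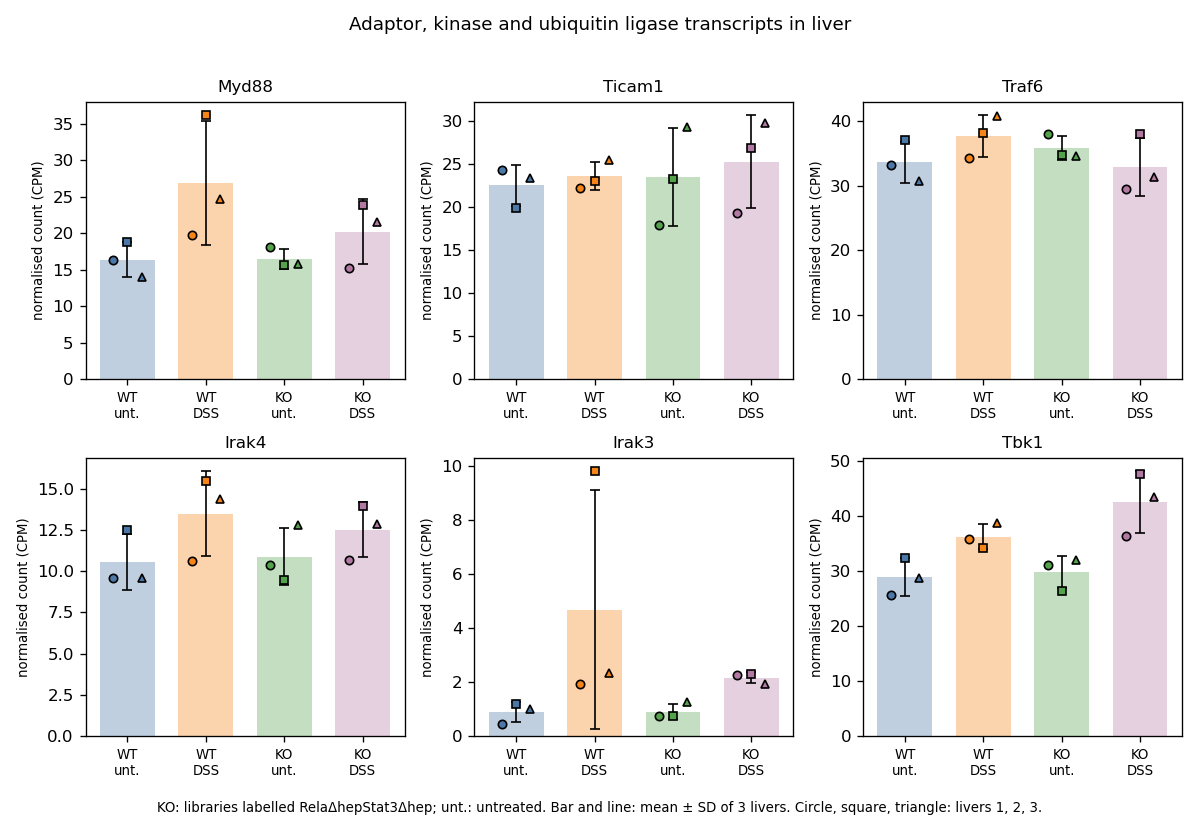
Normalised counts (CPM, linear axes from 0) of Myd88, Ticam1, Irak4, Irak3, Tbk1 and Traf6 in each liver, with bars and lines for the mean ± SD of 3 livers, lines cut at 0. Wild-type DSS liver 2 is the highest for Irak3 (9.81 CPM) and Myd88 (36.2 CPM), and Tbk1 after DSS lies above untreated livers in both genotypes.

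Across the 9 transcripts, DSS treatment of wild-type mice gave 0 calls at an edgeR adjusted p under 0.05, where 0.685% of all tested genes were called, and DESeq2 called 2, Irak3 and Myd88 (5.91% of all genes with an adjusted p). DESeq2 gave an adjusted p to 8 of the 9, all but Cd14, in each comparison. At an unadjusted edgeR p under 0.05 there were 3 (Irak3, Myd88 and Tbk1), against 14.5% of all genes. In these 3 every treated liver lay above every untreated one, as in 9.49% of all genes. The log2 fold change was above 0 for 8 of the 9, with a median of 0.36, against 52.2% and a median of 0.02 over all genes. In livers labelled RelaΔhepStat3Δhep, edgeR called 2 of the 9 as higher (Ly96 and Tbk1), where 4.57% of all genes were called higher and 7.02% in either direction. The unadjusted p was under 0.05 for 4 (Tlr4, Ly96, Irak3 and Tbk1), against 24.1% of all genes. The treated livers lay above all untreated ones for 5 of the 9 (Tlr4, Cd14, Ly96, Irak3 and Tbk1), as for 17.8% of all genes. Again 8 of the 9 had a log2 fold change above 0, with a median of 0.51, against 49.4% and a median of −0.01 over all genes. An exact two-sided permutation test of 3 against 3 livers cannot go below p = 0.1, the value it gave for each transcript without overlap.

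**Figure D3:**
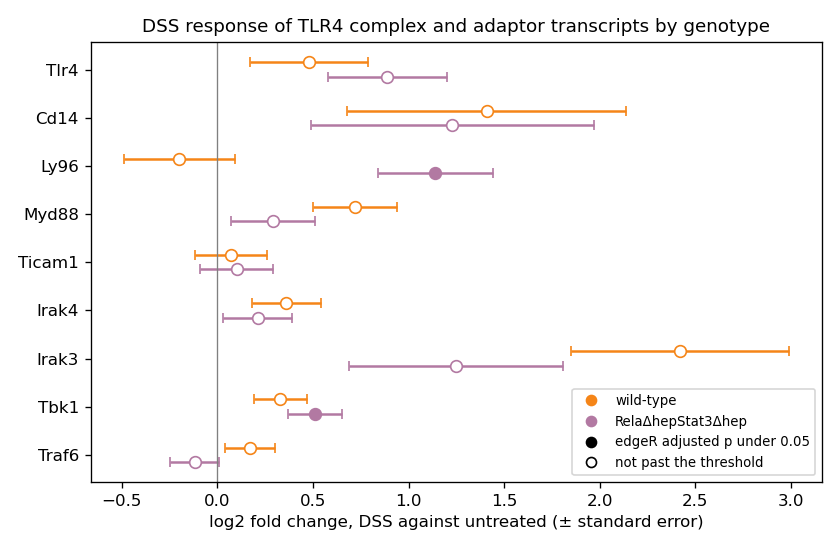
Log2 fold change from untreated to DSS-treated liver (x axis, with standard errors) of each transcript (y axis) in wild-type and RelaΔhepStat3Δhep mice. Filled points passed an edgeR adjusted p of 0.05, which only Ly96 (1.14) and Tbk1 (0.51) did, both in RelaΔhepStat3Δhep livers, while the widest gap between genotypes is that of Ly96.

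Without treatment, log2 differences between the genotypes were small for most members. edgeR called 0 of the 9 (0.0623% of all genes were called) and DESeq2 called 0 (2.07%). The unadjusted edgeR p was under 0.05 for Ly96 alone (11.7% of all genes), at a log2 difference to wild-type of −0.73 (SE 0.29, edgeR adjusted p = 0.363). Without wild-type untreated liver 3 that difference was −0.33 (edgeR adjusted p = 0.715). Cd14 was the only transcript whose untreated groups did not overlap, being lower in RelaΔhepStat3Δhep livers (log2 difference −0.62, SE 0.74, edgeR adjusted p = 0.793), as 10.7% of all genes were. The other 7 differed by 0.15 or less in log2.

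After DSS, edgeR again called 0 of the 9 between genotypes (0.334% of all genes) and DESeq2 called 0 (3.41%). None had an unadjusted edgeR p under 0.05 (14.3% of all genes). No transcript separated the groups, whereas 8.80% of all genes were higher and 7.98% lower without overlap. Irak3 (log2 difference −1.11, SE 0.54, edgeR adjusted p = 0.381) and Cd14 (−0.80, SE 0.72, edgeR adjusted p = 0.675) stood lower in RelaΔhepStat3Δhep livers. Both rested on wild-type DSS liver 2, without which they were 0.03 and 1.15. Tlr4 (0.56, SE 0.31, edgeR adjusted p = 0.438) and Ly96 (0.62, SE 0.29, edgeR adjusted p = 0.363) stood higher. The test of the difference itself, whether the DSS response depended on genotype, called 0 of the 9 in edgeR (0.408% of all genes) and 0 in DESeq2 (4.5%). Ly96 alone had an unadjusted p under 0.05 (16.3% of all genes), with a response larger by 1.34 in log2 in RelaΔhepStat3Δhep livers (SE 0.41, edgeR adjusted p = 0.162). The difference in response was 0.41 for Tlr4 (SE 0.43, edgeR adjusted p = 0.671). For Irak3 it was −1.17 (SE 0.78, edgeR adjusted p = 0.476), and −0.04 without wild-type DSS liver 2 (edgeR adjusted p = 0.981).

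Markers of macrophages were higher after DSS in RelaΔhepStat3Δhep livers. The 11 measured Kupffer cell markers summed to 338 to 677 CPM in untreated and 532 to 1130 CPM in treated wild-type livers, and to 419 to 463 CPM untreated and 804 to 1230 CPM treated in RelaΔhepStat3Δhep livers. Clec4f, a lectin of Kupffer cells, went from 106, 92.6 and 91.1 CPM to 238, 212 and 157 CPM in the latter. In RelaΔhepStat3Δhep livers 10 of the 11 markers were called higher after DSS (median log2 fold change 1.07), against 4.57% of all genes, and in wild-type livers 0 were called by edgeR and 0 by DESeq2, although 10 were above 0 and 8 had an unadjusted p under 0.05 (median 0.64), against 14.5% of all genes. Without any 1 of these RelaΔhepStat3Δhep livers, between 0 and 9 of the 11 were called, in fits that called 241 to 838 of all tested genes.

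The 7 measured monocyte markers summed to 55.1 to 77.6 and 79.5 to 164 CPM in untreated and treated wild-type livers, and to 55.1 to 83.7 and 166 to 350 CPM in RelaΔhepStat3Δhep livers, with 2 and 4 of the 7 called higher after DSS by edgeR (0.685% and 7.02% of all genes were called in either direction) and 4 and 6 by DESeq2 (5.91% and 15%). The 8 neutrophil markers summed to at most 6.04 CPM in every untreated liver and to 10.9 to 28.8 CPM in treated RelaΔhepStat3Δhep livers. Wild-type DSS liver 2, the liver with the highest Cd14, Irak3 and Myd88, held 92.7 CPM of them, against 9.85 and 4.91 CPM in the other treated wild-type livers. After DSS, edgeR called 0 of the 6 tested neutrophil markers in wild-type and 1 in RelaΔhepStat3Δhep livers (0.685% and 7.02% of all genes). The unadjusted edgeR p was under 0.05 for 5 and 6 of them (14.5% and 24.1% of all genes). DESeq2 called 4 and 5 of the 5 to which it gave an adjusted p (5.91% and 15% of all genes). Ly6g, the defining neutrophil marker, was at 0 in all but 2 livers and reached 0.892 CPM in wild-type DSS liver 2.

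The 7 lymphocyte markers summed to 5.43 to 8.67 CPM in untreated and 2.71 to 4.19 CPM in treated wild-type livers, and to 3.20 to 3.77 CPM untreated and 5.15 to 11.9 CPM treated in RelaΔhepStat3Δhep livers. All 7 had a log2 fold change to DSS below 0 in wild-type livers (median −0.98) and above 0 in RelaΔhepStat3Δhep livers (median 1.24), with 4 at an unadjusted p under 0.05 in each (14.5% and 24.1% of all genes). Neither edgeR nor DESeq2 called any of them in either genotype. In the test of whether the response depended on genotype, all 7 had an unadjusted p under 0.05 (16.3% of all genes), with a median difference of 2.01. There edgeR called 0 and DESeq2 2 of the 7 (0.408% and 4.5% of all genes). The same difference was above 0 for all 11 Kupffer cell (median 0.55), all 7 monocyte (0.96) and all 6 neutrophil markers tested (1.09), and for 6 of 7 markers of sinusoidal endothelial cells (0.58). It was above 0 for 5 of 8 stellate cell (0.35), 1 of 8 hepatocyte (−0.23) and 0 of 4 cholangiocyte markers tested (−0.57). The median over all genes was −0.02. Of the 9 transcripts it was above 0 for 4, Ly96 (1.34) among them, and below 0 for 5. In the test of this difference, edgeR and DESeq2 each called 0 Kupffer cell, monocyte, neutrophil and sinusoidal endothelial markers (0.408% and 4.5% of all genes). The unadjusted edgeR p was under 0.05 for 1 of 11, 2 of 7, 0 of 6 and 2 of 7 of them (16.3% of all genes). In whole tissue, fewer cells of a type and less RNA per cell cannot be told apart, and the part of these cells in the results above was not tested.

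**Figure D4:**
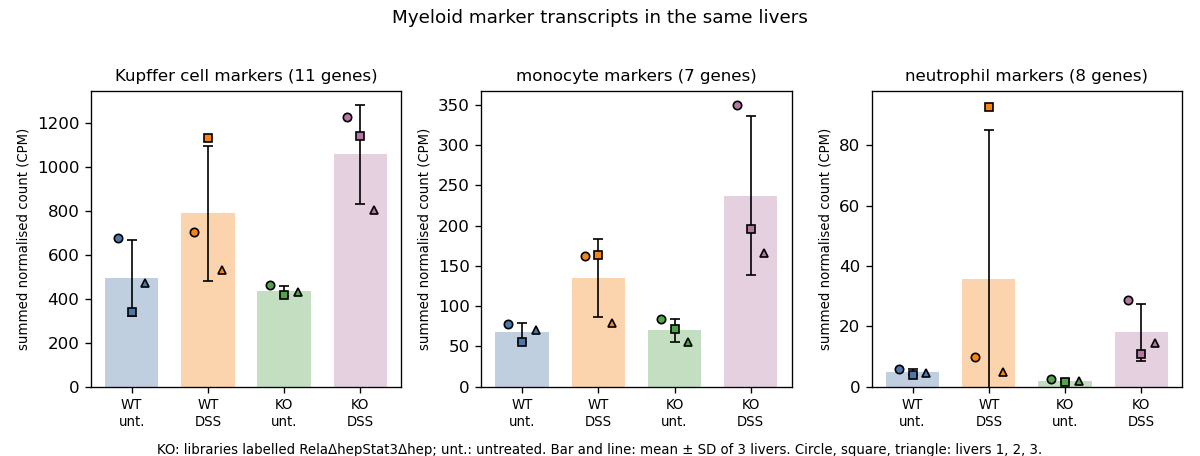
Summed normalised counts (CPM, linear axes from 0) of Kupffer cell, monocyte and neutrophil markers in each liver, with bars and lines for the mean ± SD of 3 livers, lines cut at 0. Kupffer cell markers reach 804 to 1230 CPM in treated RelaΔhepStat3Δhep livers, and wild-type DSS liver 2 stands apart for neutrophil markers at 92.7 CPM.

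Set against the Kupffer cell markers, a ratio computed after the values had been seen, none of the 9 transcripts stood above the untreated range in all treated livers of either genotype, as was so for all but 1.07% (wild-type) and 1.30% (RelaΔhepStat3Δhep) of all tested genes. In wild-type livers all 9 overlapped, where 15.9% of all genes lay lower without overlap, and in RelaΔhepStat3Δhep livers 6 lay lower without overlap (Tlr4, Myd88, Ticam1, Irak4, Tbk1 and Traf6) and 3 overlapped. Since the markers in the denominator were higher in these treated livers, 74.7% of all tested genes lay lower without overlap on the same ratio, so that the 6 of 9 say nothing particular to these transcripts. Tlr4 per 100 CPM of those markers was 2.04, 1.78 and 1.87 in untreated and 1.72, 1.18 and 1.43 in treated RelaΔhepStat3Δhep livers. Here every treated liver lay below every untreated one. Tbk1 stood at 6.70, 6.29 and 7.43 untreated and 2.95, 4.17 and 5.40 treated on the same ratio. For Ly96 the same ratio was 0.703, 0.615 and 0.588 untreated and 0.640, 0.393 and 0.758 treated, with overlap. For Cd14 it was 0.339, 0.375 and 0.273 untreated and 0.268, 0.299 and 0.425 treated, again with overlap. For Irak3 it was 0.158, 0.178 and 0.289 untreated and 0.183, 0.202 and 0.241 treated, so that the treated livers lay within the untreated range. For Irak3 in wild-type livers it was 0.068, 0.348 and 0.208 untreated and 0.271, 0.869 and 0.439 treated, and liver 2 was the highest.

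Of 59 further genes of the pathway, 50 were tested. In livers labelled RelaΔhepStat3Δhep, 12 of the 50 rose and 1 fell with DSS (26.0%, against 7.02% of all genes), and in wild-type livers 1 rose (2.00%, against 0.685%). By DESeq2, 14 of the 50 were called in wild-type livers (28.0%, against 5.91% of all genes with an adjusted p) and 18 in RelaΔhepStat3Δhep livers (36.0%, against 15%). In the list of receptors and lipopolysaccharide delivery, 7 of 14 genes rose in RelaΔhepStat3Δhep livers (median log2 fold change 1.24). In wild-type livers 0 of these 14 were called by edgeR, 8 had an unadjusted p under 0.05 (14.5% of all genes) and the median was 0.82. DESeq2 called 5 of the 14 in wild-type and 10 in RelaΔhepStat3Δhep livers, 9 higher and 1 lower. With RelaΔhepStat3Δhep libraries left out one at a time, 2 to 11 of the 50 were called, in fits that called 241 to 838 of all tested genes. The calls of Tlr3 and Ly86 held in all 6 such fits, and each of the other 11 was lost in at least 1.

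Tlr3, the endosomal receptor of double-stranded RNA, which signals through Ticam1 alone, was at 10.8, 7.49 and 11.9 CPM in untreated and 27.1, 27.4 and 28.4 CPM in treated RelaΔhepStat3Δhep livers. The treated livers were close together and far above the untreated ones (log2 fold change 1.46, SE 0.19, edgeR adjusted p = 0.00174). In wild-type livers Tlr3 was at 13.7, 12.1 and 12 CPM and, after DSS, at 24.6, 16.3 and 25.3 CPM, also without overlap but short of the threshold (0.81, SE 0.19, edgeR adjusted p = 0.072). Cd180 and Ly86 form a receptor pair related to Tlr4 and MD-2 that tempers the lipopolysaccharide response. Ly86 rose from 4.85, 4.13 and 4.55 to 17.6, 12.8 and 8.69 CPM in RelaΔhepStat3Δhep livers (1.53, SE 0.26, edgeR adjusted p = 0.00694), and Cd180 rose by 1.04 (SE 0.28, edgeR adjusted p = 0.0409). Tlr1 (1.47), Tlr2 (1.60), Tlr8 (1.07) and Tlr13 (1.57), receptors of bacterial lipopeptides and of RNA that use Myd88, rose as well (edgeR adjusted p from 0.0221 to 0.0472). Tlr9, the receptor of unmethylated DNA, had the largest log2 fold change of the list in wild-type livers without passing in edgeR (1.96, SE 0.48, edgeR adjusted p = 0.0815), and it passed in DESeq2 (adjusted p = 0.00227).

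**Figure D5:**
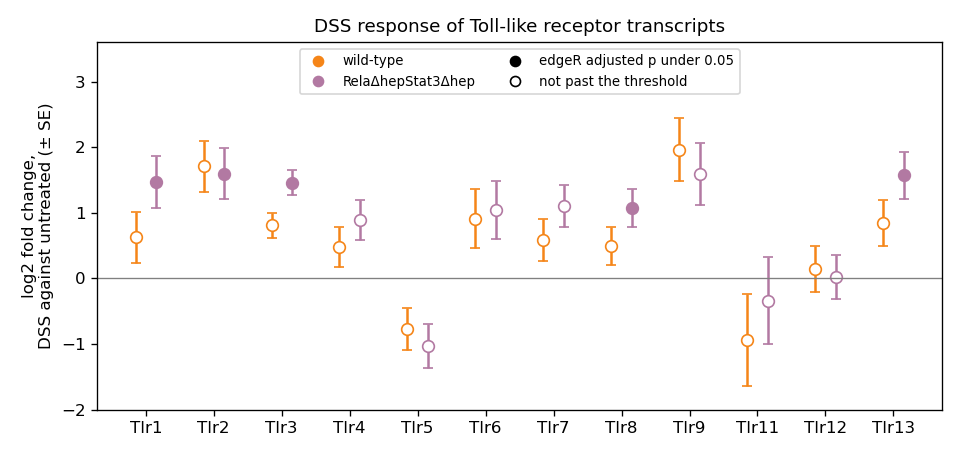
Log2 fold change from untreated to DSS-treated liver (y axis, with standard errors) of the Toll-like receptor genes tested (x axis) in both genotypes. Filled points passed an edgeR adjusted p of 0.05, as Tlr1, Tlr2, Tlr3, Tlr8 and Tlr13 did in RelaΔhepStat3Δhep livers, and Tlr4 at 0.48 and 0.89 lies below most of them.

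Among the inhibitors of the pathway, Socs1, a suppressor of cytokine signalling, rose in both genotypes. It was at 0.105, 0.219 and 0.347 CPM in untreated and 3.00, 1.13 and 0.828 CPM in treated wild-type livers (2.89, SE 0.51, edgeR adjusted p = 0.0222), a call lost without untreated liver 1 (edgeR adjusted p = 0.0785) or 2 (edgeR adjusted p = 0.0864). In RelaΔhepStat3Δhep livers Socs1 was at 0.611, 0.524 and 0.715 CPM untreated and 3.68, 3.58 and 4.89 CPM treated (2.71, SE 0.48, edgeR adjusted p = 0.0081), and this call was lost without untreated liver 2 (2.61, edgeR adjusted p = 0.0509). Tnip1, a partner of the ubiquitin-editing enzyme A20, rose by 0.84 in RelaΔhepStat3Δhep livers (SE 0.16, edgeR adjusted p = 0.0108). Azi2, a scaffold of Tbk1, rose by 0.46 (SE 0.13, edgeR adjusted p = 0.0491), Unc93b1, which escorts endosomal receptors, by 0.64 (SE 0.14, edgeR adjusted p = 0.0169), and Aoah, which deacylates lipopolysaccharide, by 1.05 (SE 0.28, edgeR adjusted p = 0.0415).

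Receptors of the interleukin-1 family, which share Myd88 with Tlr4, gave 1 call among 5 tested genes in RelaΔhepStat3Δhep livers (7.02% of all genes were called). There Il1rap, the accessory chain of the interleukin-1 receptor, fell by 0.76 (SE 0.19, edgeR adjusted p = 0.031). This call was lost in 4 of the 6 fits that left out 1 library (edgeR adjusted p up to 0.124). DESeq2 called 3 of the 5 in these livers, 2 higher and 1 lower (15% of all genes). Il1r1 had the largest log2 fold change of this list in wild-type livers after DSS (1.98, SE 0.65, edgeR adjusted p = 0.195), which was 0.70 without DSS liver 2, and the largest difference in response between genotypes. It was at 54.8, 44.9 and 41.0 CPM in untreated and 37.2, 401 and 116 CPM in treated wild-type livers, and at 85.8, 66.5 and 66.2 CPM untreated and 25.3, 27.6 and 33.9 CPM treated in RelaΔhepStat3Δhep livers. Treated wild-type livers ran from 37.2 to 401 CPM. Every treated RelaΔhepStat3Δhep liver lay below all of them, as for 7.98% of all genes, and below every untreated liver. The log2 difference between the treated genotypes was −2.67 (SE 0.67, edgeR adjusted p = 0.13). It ran from −3.15 to −1.40 when single libraries were left out. The DSS responses differed by −3.31 in log2 (SE 0.91), which passed in DESeq2 (adjusted p = 0.00924) and not in edgeR (adjusted p = 0.146), and passed in edgeR without wild-type DSS liver 1 (−3.79, edgeR adjusted p = 0.0122). Without wild-type DSS liver 2, the liver at 401 CPM, it was −2.04 (edgeR adjusted p = 0.0967), and over the 12 fits that left out 1 library the adjusted p ran from 0.0122 to 0.306.

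Between genotypes, edgeR called 0 of the 50 pathway genes, untreated or treated, with 4 and 9 at an unadjusted p under 0.05 (11.7% and 14.3% of all genes). In the test of whether the DSS response depended on genotype it also called 0, with 8 at an unadjusted p under 0.05 (16.3% of all genes). DESeq2 called 0 of them untreated, 1 after DSS and 1 in the test of the response, in both cases Il1r1 (2.07%, 3.41% and 4.5% of all genes).

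The genes whose levels followed those of the members most closely were sought by the root mean square difference of log2 CPM, each gene centred on its own mean over the 12 livers, among 12718 protein-coding genes. For Tlr4 these were Myo9a (0.12), Gm5150 (0.13) and Tlr8 (0.15), against a root mean square of 0.52 for the variation of Tlr4 itself. For Cd14, whose own variation was 0.82, they were Mmp9 (0.30), Adamts4 (0.34) and Itgb3 (0.34), and for Irak3, at 0.85, Ifitm6 (0.30), Adamts4 (0.31) and Nfkbiz (0.33). Ly96 was followed most closely by 1810035L17Rik (0.16), Fam54a (0.17) and Immp1l (0.18), against 0.46 of its own. Adamts4 was common to Cd14 and Irak3, both highest in wild-type DSS liver 2, as were Myd88 and Irak4. The TMM factor of that library was 0.758, against 0.953 to 1.13 in the others, which raises its CPM values. For Irak4 its rank rests on this scaling: it held 975 counts, against 977 in wild-type DSS liver 3, whose library was smaller.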

How the data were processed

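Liver RNA-seq libraries of 12 mice were analysed, 3 in each of 4 groups taken from the labels. The authors deposited estimated counts per Ensembl gene, whole numbers that StringTie derives from transcript coverage. Reads had been trimmed with fastp and aligned to the mouse build mm9 with HISAT2; which annotation release was used is not given in the sources used here. Such counts carry the coverage model of StringTie, and genes that overlap or share sequence may be split unevenly.

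Identifiers were named through GENCODE vM1 (mm9). Rows with low counts were removed with filterByExpr, leaving 17652 of 51609. A model with 4 groups was fitted with edgeR 4.0.16 in R 4.3.3 (TMM scaling, quasi-likelihood test), with Benjamini-Hochberg adjustment over every tested gene and a threshold of 0.05. DESeq2 1.42.0, other scalings and filters, fits on only the groups compared, a replicate block and leaving out each library were alternatives. Exact permutation tests used log2(CPM + 0.5), and pseudocounts of 0.1 and 2 gave the same p for every member. The procedure was tested on simulated data. No libraries were duplicates. The labels name replicates without stating litters or cages.

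All members are named. Of the other pathway genes, those past the threshold are named, and per list the one with the largest change may be. Genes most like a member are the 3 with the smallest root mean square difference. Members and lists were chosen with earlier results of these data known. The promoter sequences come from RefSeq and were read on GRCm38.p6, whereas gene positions are on mm9. Libraries held 65879529 to 82850098 counts, but scarce transcripts rested on few: Irak3 had 35 to 616 per library, so that counting error adds to the spread between livers.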

Additional observations from a re-analysis of the deposited data

How the results depend on the processing

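With 3 livers per group, a count of calls moved readily. In wild-type livers after DSS, the number of the 9 members called was 0 in the main model, 2 with DESeq2 and 0 to 1 when single libraries were left out. In RelaΔhepStat3Δhep livers it was 2, and 1 with RLE size factors, 1 without a filter, 1 with the replicate block, 4 with only the groups compared and 0 to 1 without single libraries. Of the 50 other pathway genes, 1 was called in wild-type livers, 14 with DESeq2, 0 with only the groups compared and 0 to 7 without single libraries. In RelaΔhepStat3Δhep livers 13 were called and 2 to 11 without single libraries. Between genotypes after DSS the count of 0 became 1 with DESeq2 and 0 to 4 without single libraries, and for the response it became 1 with DESeq2 and 0 to 1 without single libraries. The Kupffer cell marker count of 10 in RelaΔhepStat3Δhep livers ran from 0 to 9 without single libraries. Those fits without single libraries called 35 to 209 of all tested genes for wild-type DSS and 241 to 838 in RelaΔhepStat3Δhep livers. Between genotypes after DSS they called 11 to 392, and for the response 21 to 220. Over all genes, DESeq2 called 857 for wild-type DSS where edgeR called 121, 2326 against 1240 in RelaΔhepStat3Δhep livers, 322 against 11 untreated, 582 against 59 after DSS and 699 against 72 for the response; the cause was not tested.

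Replicate numbers did not pair the livers: 5 of 18 same-numbered pairs correlated above 0.1 (range −0.073 to 0.206), and 5 of 12 libraries correlated best with their own number. With the replicate block edgeR called 119, 1164, 33, 66 and 128 genes in the same order, Tbk1 in RelaΔhepStat3Δhep livers was at 0.50 (edgeR adjusted p = 0.0579), and the Cd14 response difference turned to 0.34. With at least 10 counts in every library the Ticam1 response difference was 0.00.

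Leaving out single libraries changed the sign of several log2 differences, which for Cd14 and Irak3 were among the larger ones. For wild-type DSS, Cd14 ran from −0.53 to 1.88, Ly96 from −0.40 to 0.20 and Ticam1 from −0.02 to 0.12. In RelaΔhepStat3Δhep livers Ticam1 ran from −0.05 to 0.29. Between untreated genotypes Tlr4 ran from −0.13 to 0.34, Myd88 from −0.09 to 0.12, Ticam1 from −0.13 to 0.22, Irak4 from −0.09 to 0.18, Irak3 from −0.25 to 0.33 and Tbk1 from −0.04 to 0.13. After DSS, Cd14 ran from −1.27 to 1.15, Ticam1 from −0.03 to 0.27, Irak4 from −0.25 to 0.00 and Irak3 from −1.48 to 0.03. For the response difference, Cd14 ran from −0.65 to 1.75 and Ticam1 from −0.12 to 0.23. Ly96 and Tlr4 kept their direction in RelaΔhepStat3Δhep livers after DSS under every alternative run.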
